A study of Homo sapiens with 2 samples.

Results

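This report describes 36 developmental regulator genes in K562 cells, compared with and without induction of a hairpin RNA against BMI1. The genes were chosen by name, as lineage regulators outside the HOX clusters that are usual targets of Polycomb repression. The rule for choosing them uses no measured value, although the list was drawn up with earlier results of these data known. Of the 36, 34 had a probe set of 1 gene symbol and were measured, out of 18417 genes so measured on the array; FOXC1 and NEUROD1 were not analysed here. Polycomb occupancy itself was not measured in these samples. The set is not made of transcription factors alone, since WNT1 and WNT6 encode secreted ligands.

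K562 is a human chronic myeloid leukaemia line with erythroid features. Both cultures carried the doxycycline-inducible short hairpin RNA against BMI1 (labelled shBmi1 or shBMI1). One culture, labelled P4-K562+shBMI1+doxycycline, was incubated with doxycycline for 96 h, and the other, labelled P3-K562+shBMI1, received none and has no stated incubation time. Each group held 1 sample on 1 array, so no value below has a replicate error and no test was made. None of the 2 samples received doxycycline without the hairpin, so an effect of the drug and an effect of the hairpin cannot be told apart, and neither can any other difference between the cultures. The sources used here do not say whether the line is 1 clone.

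Polycomb repressive complex 2 methylates histone H3 at lysine 27, and complex 1, of which BMI1 (PCGF4) is a subunit, compacts such chromatin and ubiquitinates histone H2A. Together they keep the master regulators of other lineages silent in a committed cell, and these genes typically start in long stretches rich in CpG dinucleotides. Regulators of brain, heart, gut, muscle or kidney are not part of the erythroid programme and serve as classical readouts of whether Polycomb silencing holds. Their loss of repression is the textbook consequence looked for when a complex 1 subunit is depleted. BMI1 has PCGF paralogues, and whether any of them stood in for it was not tested.

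CpG density was not itself used to choose the members. Usual Polycomb targets typically start in CpG-rich stretches, however, so the choice favours a high density. All measured members of the GATA and FOX family read lower with doxycycline. Promoters of 3 of these, and of the 2 members furthest on the higher side (PAX6 and EVX1), are shown for their CpG density. Each is the 250 bases before a RefSeq start on GRCh38.p14, written 5′ to 3′ on the gene's strand, with every CpG in capitals. PAX6 lies at chr11:31817962-31818211 on the minus strand, before the most upstream of its 9 RefSeq starts. EVX1 lies at chr7:27242552-27242801 on the plus strand, GATA6 at chr18:22169339-22169588 on the plus strand, FOXA1 at chr14:37595250-37595499 on the minus strand and FOXD3 at chr1:63322317-63322566 on the plus strand.
PAX6: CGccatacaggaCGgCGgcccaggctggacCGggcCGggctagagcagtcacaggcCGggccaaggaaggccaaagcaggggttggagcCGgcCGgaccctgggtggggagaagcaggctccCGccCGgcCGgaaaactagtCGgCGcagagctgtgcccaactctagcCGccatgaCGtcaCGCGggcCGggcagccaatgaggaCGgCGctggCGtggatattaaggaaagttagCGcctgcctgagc
EVX1: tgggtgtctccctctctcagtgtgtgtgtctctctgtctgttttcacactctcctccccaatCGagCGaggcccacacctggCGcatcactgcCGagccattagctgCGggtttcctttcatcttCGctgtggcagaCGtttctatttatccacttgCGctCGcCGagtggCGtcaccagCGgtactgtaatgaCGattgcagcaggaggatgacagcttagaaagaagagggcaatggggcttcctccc
GATA6: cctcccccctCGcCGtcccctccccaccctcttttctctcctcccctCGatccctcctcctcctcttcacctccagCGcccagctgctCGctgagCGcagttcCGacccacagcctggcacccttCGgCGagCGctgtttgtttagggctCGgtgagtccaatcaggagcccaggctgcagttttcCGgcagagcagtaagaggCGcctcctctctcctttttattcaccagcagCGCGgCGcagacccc
FOXA1: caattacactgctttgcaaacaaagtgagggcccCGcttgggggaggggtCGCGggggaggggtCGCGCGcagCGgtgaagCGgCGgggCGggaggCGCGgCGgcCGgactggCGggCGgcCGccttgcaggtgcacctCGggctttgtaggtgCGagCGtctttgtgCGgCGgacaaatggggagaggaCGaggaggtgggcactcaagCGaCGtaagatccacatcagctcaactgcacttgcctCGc
FOXD3: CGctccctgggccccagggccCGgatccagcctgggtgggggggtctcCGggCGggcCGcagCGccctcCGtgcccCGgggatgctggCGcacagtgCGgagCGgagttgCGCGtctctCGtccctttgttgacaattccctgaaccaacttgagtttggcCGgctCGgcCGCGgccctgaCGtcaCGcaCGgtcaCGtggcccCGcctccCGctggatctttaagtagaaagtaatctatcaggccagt

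Among these, FOXA1 held 26 CpG dinucleotides in 250 bases, FOXD3 24, PAX6 22, GATA6 16 and EVX1 13. The table of RefSeq promoters held 27 of the 36 members and 27305 genes in all, taking the most upstream start of each gene. The median member promoter held 24 CpG, from 7 to 45, against 10 over all promoters but 20 over the 10603 promoters of genes compared here. The ratio of observed to expected CpG (CpG count times window length over the product of the C and G counts) was at least 0.6 in 25 of the 27 members, or 92.6%, against 47.3% of all promoters and 75.1% of those of genes compared; the median ratio was 0.81 in members and 0.80 in genes compared. The members under 0.6 were PAX2 at 0.53 and OTX2 at 0.51. The letters TATAAA on either strand occurred in 0 of the 27 windows, against 11.2% of all promoters and 6.34% of those of genes compared. CCAAT occurred in 13 of 27 (48.1%), against 33.0% and 34.4%. GGGCGG, the GC box letters, also occurred in 13 of 27 (48.1%), above the 42.2% of all promoters and below the 65.5% of genes compared. None of these 3 motifs contains another, and a match is a description of the window, not a binding site. The median log2 difference was 0.0019 over the 7961 genes compared with a ratio of at least 0.6 and 0.0092 over the 2642 genes under it.

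The values are log2 RMA values, and every difference below is the value with doxycycline minus the value without. The array held 33297 probe sets, with a median of 6.77 with doxycycline and 6.78 without. The BMI1 probe set, which it shares with a read-through transcript, stood at 10.00 with doxycycline and 10.84 without, 1.79-fold lower. The erythroid markers GATA1, TAL1, LMO2, KLF1, HBZ, HBE1, EPOR, HEMGN and ALAS2 were all past a log2 value of 6 in both samples, and 8 of these 9 were lower with doxycycline, with a median of -0.18. Of the fibroblast markers DCN (4.19 with doxycycline and 4.21 without) and LUM (3.30 and 3.12) were under 6 in both samples, while 4 of 6 reached 6. These were COL1A1 (7.73 and 7.84), COL1A2 (7.91 and 7.86), COL3A1 (6.63 and 6.62) and PDGFRB (6.37 and 6.19). The T cell markers reached 6 in 1 of 4 and the B cell markers in 2 of 3 measured. The log2 values were summed over 9 erythroid, 6 fibroblast, 4 T cell and 3 B cell markers, so sums of different lists cannot be compared. The sums were 84.4 with doxycycline and 86.2 without for the erythroid list, and 36.1 and 35.8 for fibroblasts. For T cells they were 24.7 and 24.7, and for B cells 16.9 and 17.4. The part of the markers in the results was not tested. In such bulk RNA a lower share of cells expressing a gene and less of its RNA per cell cannot be told apart.

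The developmental regulators as a set were not higher in the doxycycline culture. Of the 34 measured, 30 had a higher value of at least 6 (the floor used against dim probe sets), each in both samples, and 10 of these 30 were higher with doxycycline, 19 lower and 1 equal. The background over the 13471 genes past the floor was 50.3% higher and 48.8% lower. The median difference of the members was -0.06, with quartiles of -0.16 and 0.09, against a median of 0.0018 and quartiles of -0.09 and 0.11 over all genes compared. The lowest member was SOX17 at -0.32 and the highest PAX6 at 0.32. At the size of 1.2-fold, 2 of 30 were higher (PAX6 and EVX1) and 2 lower (SOX17 and FOXD3), or 6.67% each way, where the background was 6.04% higher and 4.05% lower. At 1.5-fold the members counted 0 higher and 0 lower, with a background of 0.364% and 0.111%. Shares of this size among 30 genes are near the background. With the WNT ligands left out, 10 of 28 factors were higher and 17 lower, with a median of -0.05.

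**Figure D1:**
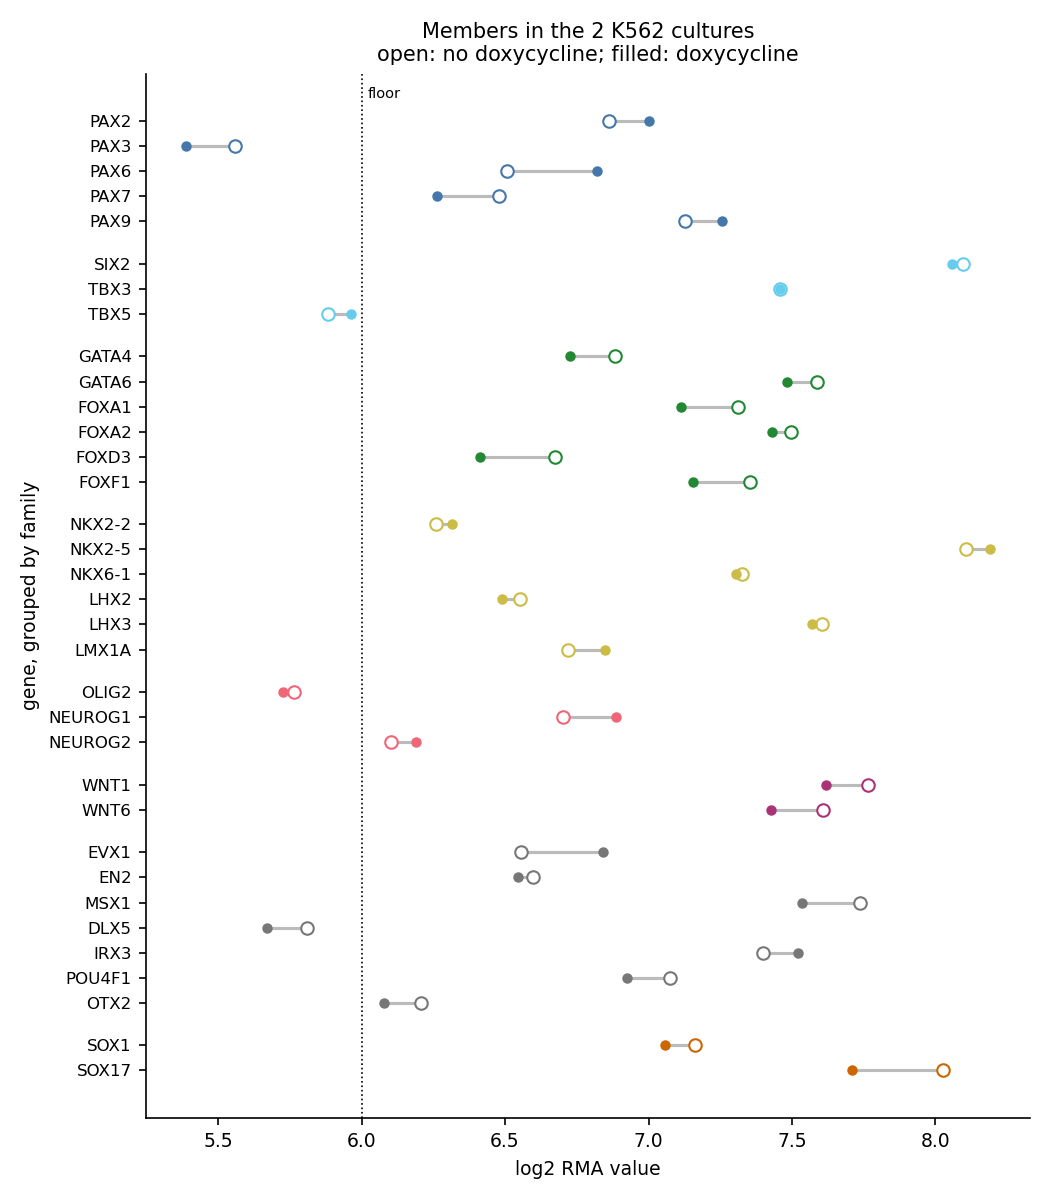
Log2 RMA values (horizontal axis) of the 34 measured members, 1 gene per line and coloured by family, in the culture without doxycycline (open circles) and with it (filled circles), 1 sample each. The dotted line is the floor of 6, under which PAX3, TBX5, OLIG2 and DLX5 lie in both samples, and all 6 GATA and FOX genes have the filled circle to the left.

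The PAX genes encode paired-box factors of the kidney, eye, neural tube and muscle. PAX6, the regulator of eye and forebrain (probe set 7947338), stood at 6.82 with doxycycline and 6.51 without, which is 0.32 or 1.24-fold. It was the highest of the members, and 5.38% of the 1561 genes with a mean within 0.25 of its own had a difference at least as high. PAX2, which directs kidney and optic nerve development, read 7.00 with doxycycline against 6.86, and PAX9, needed for teeth and the pharyngeal pouches, 7.26 against 7.13. Their differences of 0.14 and 0.13 lay under the robust SD of genes at like levels, 0.17 and 0.15 (the median absolute deviation scaled to an SD). PAX7, the regulator of muscle satellite cells, went the other way, at 6.26 with doxycycline and 6.48 without (-0.22), and 10.7% of genes at like levels were as low. PAX3, its close relative in neural crest and muscle precursors, was under the floor at 5.39 against 5.56. The family thus had 3 of 4 members past the floor higher, and the closely related pair PAX3 and PAX7 both read lower.

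All 6 GATA and FOX members measured were lower with doxycycline, with a median of -0.18. FOXD3, a neural crest and pluripotency regulator (probe set 7901913), stood at 6.41 with doxycycline and 6.68 without, which is -0.26 and lay just past the 1.2-fold size; it fell short of it after centring, quantile normalization or subtraction of a loess trend. Of 1571 genes at like levels 6.56% were as low. FOXA1, a pioneer factor of endoderm and hormone-responsive epithelia, read 7.11 against 7.31 (-0.20), and FOXF1, a regulator of lung and gut mesenchyme, 7.16 against 7.35 (-0.20). At like levels 8.65% of genes were as low as FOXA1 and 8.46% as low as FOXF1. FOXA2, the endoderm and floor plate factor, was nearer to 0, at 7.43 against 7.50 (-0.07). GATA4, of the heart and endoderm, read 6.73 with doxycycline and 6.88 without (-0.16), and GATA6, its partner in the same tissues, 7.48 against 7.59 (-0.10). The differences of FOXA2, GATA4 and GATA6 were smaller in size than the robust SD of genes at like levels, 0.15, 0.17 and 0.15. Of those genes 33.7% near FOXA2, 17.0% near GATA4 and 24.2% near GATA6 were as low. The differences of FOXD3, FOXA1 and FOXF1 were larger in size than theirs, 0.18, 0.15 and 0.15. The shared sign of the 6 members was read from 1 pair of samples and has no test. It did not hold in every such gene of the other lists described below, where GATA3 at 0.16 and FOXB1 at 0.03 were higher. There GATA5 and FOXC2 at -0.07, FOXE1 at -0.20, FOXE3 and FOXQ1 at -0.06 and FOXL2 at -0.09 were lower. The blood genes GATA1 and GATA2 were lower too.

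Both SOX members and both WNT members were lower too. SOX17, which specifies endoderm and arterial endothelium (probe set 8146462), stood at 7.71 with doxycycline and 8.03 without, which is -0.32 or 1.25-fold lower. It was the member furthest from genes of like level, of which 2.02% were as low (1533 genes, robust SD 0.15). SOX1, a marker of neural progenitors, read 7.06 against 7.16 (-0.10). The SOX genes of the other lists described below did not share this sign. Past the floor SOX2 at 0.22, SOX9 at 0.14, SOX11 at 0.07, SOX8 at 0.06 and SOX3 at 0.03 were higher. There SOX18 at -0.29, SOX21 at -0.04 and SOX7 at -0.03 were lower. SOX2 reached 6 in the doxycycline sample alone. WNT1, the ligand that patterns the midbrain, read 7.62 with doxycycline and 7.76 without (-0.14), and WNT6, a ligand of epithelia and somites, 7.43 against 7.61 (-0.18). The other 12 WNT ligands past the floor leaned the other way, with 8 higher and 4 lower and a median of 0.03. Among them WNT11, a ligand of non-canonical signalling, differed by -0.26 and WNT5B by 0.25.

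The NKX and LIM homeobox genes split evenly, with 3 of 6 higher, 3 lower and a median of 0.02. NKX2-5, the cardiac regulator, read 8.19 with doxycycline and 8.11 without (0.08). NKX2-2, of ventral neural tube and pancreatic islets, read 6.31 against 6.26 (0.05), and NKX6-1, a beta cell and motor neuron factor, 7.31 against 7.32 (-0.02). LHX2, of forebrain and hair follicle stem cells, read 6.49 against 6.55 (-0.06), and LHX3, of pituitary and motor neurons, 7.57 against 7.60 (-0.03). LMX1A, a factor of midbrain dopamine neurons, had the furthest value of this family at 6.85 with doxycycline and 6.72 without (0.13), and 22.8% of genes at like levels were as high.

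The proneural basic helix-loop-helix genes were higher where they passed the floor. NEUROG1, which commits sensory neuron precursors, stood at 6.89 with doxycycline and 6.70 without (0.18), and 15.1% of genes at like levels were as high. NEUROG2, its counterpart in cortex and sensory ganglia, read 6.19 against 6.10 (0.09). OLIG2, of oligodendrocytes and motor neurons, was under the floor at 5.73 against 5.76.

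The other homeobox genes split, with 2 of 6 past the floor higher and 4 lower. EVX1, an even-skipped homologue of the posterior embryo that borders the HOXA cluster (probe set 8131970), stood at 6.84 with doxycycline and 6.56 without, which is 0.28 or 1.22-fold. Of 1551 genes at like levels 7.03% were as high. MSX1, of limb, tooth and craniofacial mesenchyme, read 7.54 with doxycycline and 7.74 without (-0.20), and 8.58% of genes at like levels were as low. IRX3, of neural tube and heart, was higher at 7.52 against 7.40 (0.12). POU4F1, a sensory neuron factor, read 6.93 against 7.07 (-0.15), OTX2, of forebrain and retina, 6.08 against 6.21 (-0.13), and EN2, of the midbrain and cerebellum, 6.54 against 6.60 (-0.05). DLX5, of bone and branchial arches, was under the floor at 5.67 against 5.81.

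SIX2, TBX3 and TBX5 differed by at most 0.08 in size. SIX2, which maintains nephron progenitors, read 8.06 with doxycycline and 8.10 without (-0.04). TBX3, of limb, mammary gland and heart, had the same deposited value of 7.46 in both samples; equal values occurred in 735 of the 33297 probe sets, or 2.21%. TBX5, the gene of forelimb and heart, neighbours TBX3 on chromosome 12 with 0 protein-coding genes between them, and was just under the floor at 5.96 against 5.88. Both other pairs of members that lie close together differed in sign: NKX2-2 and FOXA2 on chromosome 20, with 1 protein-coding gene between them, at 0.05 and -0.07, and PAX9 and FOXA1 on chromosome 14, with 2 between them, at 0.13 and -0.20.

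**Figure D2:**
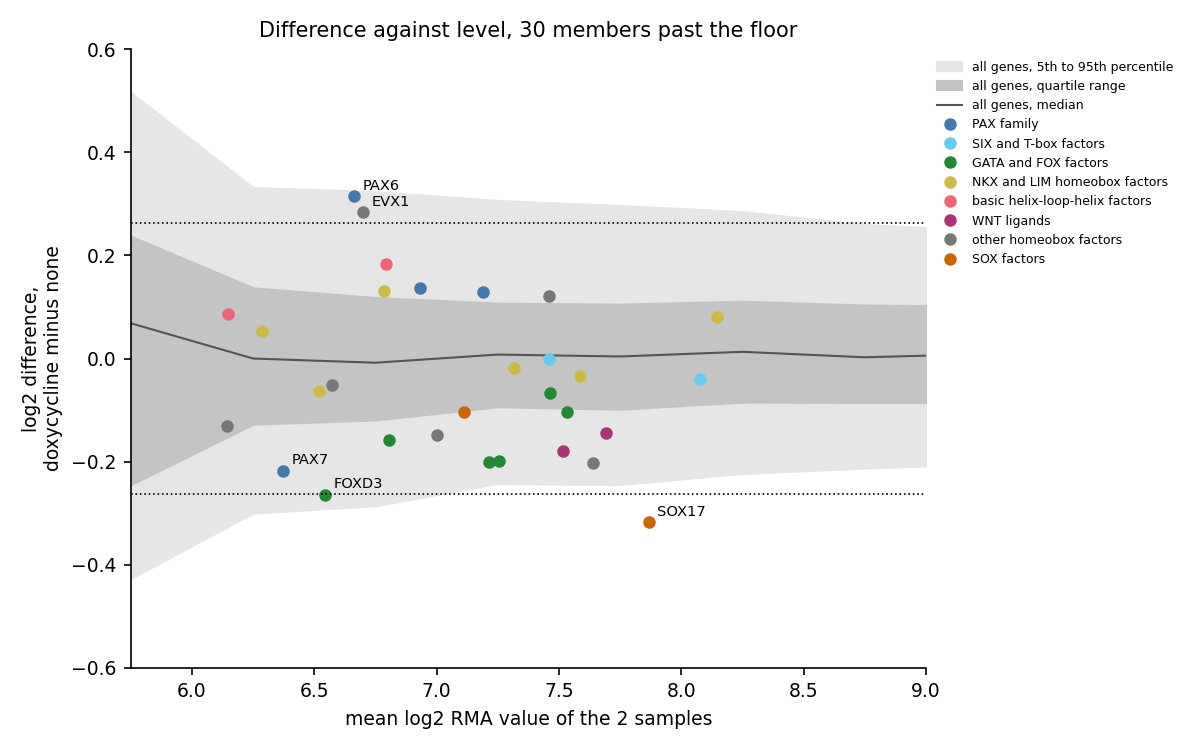
Difference in log2 RMA value, doxycycline minus none (vertical axis), against the mean of the 2 samples (horizontal axis) for the 30 members past the floor, coloured by family. Grey areas are the 5th to 95th percentile and the quartile range of all genes compared at each level, the line is their median and dotted lines mark 1.2-fold; SOX17 at -0.32 lies below the grey area.

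The members were also counted in bands of their mean level. These bands say how bright a probe set is and so how well a difference could be measured, not how much transcript there was. Of the 14 members with a mean from 6 to 7, 7 were higher and 7 lower, with a median of 0.00045, where the background was 48.1% higher and 50% lower. Of the 16 with a mean of at least 7, 3 were higher (PAX9, NKX2-5 and IRX3), 12 lower and 1 equal, with a median of -0.09, where the background was 50.9% higher and 48.5% lower. The robust SD of all genes was 0.19 in the first band and 0.14 in the second. All 4 members under the floor, which were left out of these counts, had differences from -0.17 (PAX3) to 0.08 (TBX5). Where 554 other genes had several probe sets past the floor, these gave differences with a pooled SD of 0.13. Each measured member had a single probe set, so no member could be checked against another of its own.

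Genomic span moved with these results. The median span of the members past the floor was 6201 bases, against 23969 bases over all genes compared, and 22 of the 30 lay in the 2 shortest quintiles. In the shortest quintile, up to 6685 bases, the median of all 2692 genes was -0.04, with a background of 39.3% higher and 59.5% lower, and the 15 members there had 5 higher and 10 lower with a median of -0.10. In the longest quintile the median of all genes was 0.04, and 2 of 4 members were higher. With the median of each quintile subtracted, an alternative chosen after the data were seen, the members had 12 higher and 18 lower and a median of -0.03. The part of span in the differences of the members was not tested.

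**Figure D3:**
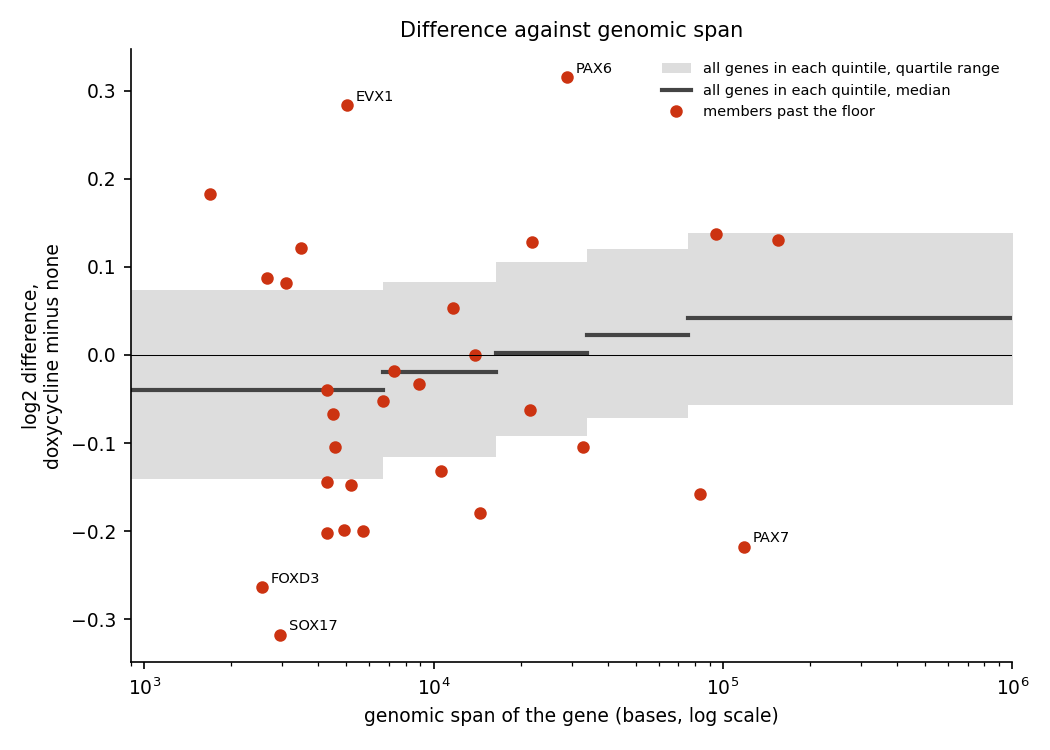
Difference in log2 RMA value, doxycycline minus none (vertical axis), of the 30 members past the floor against the genomic span of the gene in bases (horizontal axis, log scale, cut at both ends). Grey blocks and bars give the quartile range and median of all genes in each quintile of span, which runs from -0.04 in the shortest to 0.04 in the longest; EVX1 and SOX17, both in the shortest quintile, lie on opposite sides.

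More of the further developmental regulators were lower than higher. Of 107 further factors of the same families and tissues, 99 were measured and 82 passed the floor. Of these, 28 were higher and 53 lower, or 34.1% and 64.6%, with a median of -0.04. The background was 50.3% higher and 48.8% lower. Genomic span was not looked at in this list or in the other lists. Of the 82, 4 reached 6 in the control sample alone and 2 in the doxycycline sample alone, which favours a difference in that direction. Among the 76 that reached 6 in both samples, a split added after the data were seen, 26 were higher and 49 lower with a median of -0.04, and at 1.2-fold 2 were higher and 5 lower. The background over all 13015 genes past 6 in both samples was 5.45% higher and 3.48% lower at that size. The furthest were DLX3, of skin and placenta, at 5.89 with doxycycline and 6.31 without (-0.42), and TLX3, of sensory and respiratory neurons, at 5.78 against 6.18 (-0.40). Both had a value of at least 6 in the control sample alone. The HOX cluster genes past the floor, 20 of 27 measured, had 11 higher and 8 lower and a median of 0.01. HOXD13, of the digits, differed by -0.32 and HOXD4 by 0.29, which lie near the lowest and highest members here. At 1.2-fold the HOX genes counted 1 higher and 1 lower, or 5% each way, where the background was 6.04% higher and 4.05% lower. Neither list shows the 1.5-fold size in any gene past the floor (0 higher and 0 lower in each). The background at 1.5-fold was 0.364% higher and 0.111% lower, so lists of this size are too small to tell.

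Most of the regulators that act in blood cells were lower. Of 16 blood transcription factors past the floor, 14 were lower and 2 higher, with a median of -0.12, beside 19 of 30 members lower with a median of -0.06; the difference between the lists was not tested. KLF1, the erythroid Krüppel-like factor, read 9.38 with doxycycline and 9.66 without (-0.28). FLI1, a megakaryocytic factor, was the exception in size, at 6.68 against 6.11 (0.57). GATA1, which is active in erythroid cells, differed by -0.18 and was chosen for mention after its value was seen. Beside it GATA4 differed by -0.16 and GATA6 by -0.10. Of the other GATA genes, GATA2 differed by -0.06, GATA5 by -0.07 and GATA3 by 0.16. GATA3 reached 6 in the doxycycline sample alone. The Polycomb subunits other than BMI1 split evenly, with 13 of 27 higher and 14 lower and a median of -0.02. PCGF6 and PCGF3, paralogues of BMI1 in variant complexes, had the furthest values of that list, at 0.25 and 0.24. The paralogues PCGF2 at -0.20, PCGF1 at -0.11 and PCGF5 at -0.09 were lower. At 1.2-fold the list counted 0 higher and 0 lower, where the background was 6.04% higher and 4.05% lower.

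Products of the lineages that these factors direct were not higher as a list either. Of 27 such genes, 21 were measured and 13 passed the floor, with 4 higher and 9 lower and a median of -0.11. Of these, 3 reached 6 in the control sample alone, TTR among them, and the 10 that reached it in both samples had 4 higher and 6 lower with a median of -0.05. SFTPC, the lung surfactant protein C gene, stood at 6.65 with doxycycline and 6.10 without (0.56), and TTR, the transthyretin gene of liver and choroid plexus, at 5.91 against 6.21 (-0.30). At 1.2-fold 1 of 13 was higher (SFTPC) and 1 lower (TTR), or 7.69% each way. The background at that size was 6.04% higher and 4.05% lower.

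**Figure D4:**
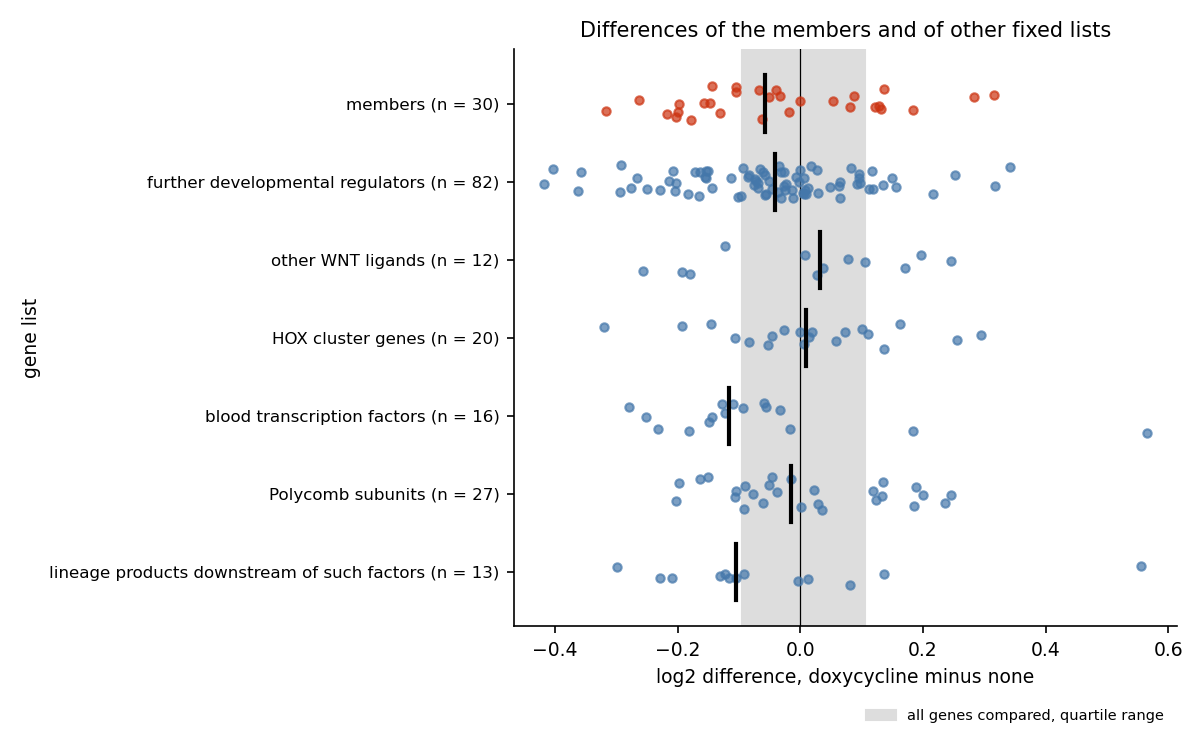
Difference in log2 RMA value, doxycycline minus none (horizontal axis), of each gene past the floor in the members (red) and in 6 other fixed lists (blue), 1 point per gene with random vertical spread and a black bar at the median. The grey band is the quartile range of all genes compared, -0.09 to 0.11. The median of the members at -0.06 lies inside it. The medians of the blood transcription factors at -0.12 and of the lineage products at -0.11 lie below it.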

How the data were processed

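RNA of 2 K562 cultures, 1 per group, was measured on 1 Affymetrix array each. Per the submitters' processing notes, the authors used Affymetrix Expression Console 1.1.1 with RMA. The deposited values are read as log2, which RMA gives and their range of 1.61 to 14.6 allows. RMA quantile-normalizes arrays, so a change common to every gene would be lost, and shrinks differences of dim probe sets. The design text names the HG-U133 Plus2 array, but the probe set numbers, annotation and labelling protocol fit a whole-transcript array, which was assumed. Of 33297 probe sets, 19460 had 1 symbol, 1754 several and 12083 none here; 19429 of the 19460 matched RefSeq by Entrez ID. A gene took its probe set with the highest mean (18417 genes), and genes whose higher value was under 6 were left out (13471 kept).

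Sizes were 1.2-fold and 1.5-fold. With 1 sample per group, counts, medians and robust SDs were given without p-values, and the number of arrays limits precision. Steps were tested on simulated data with differences larger than that of any member, checked at 1.5-fold. That test does not cover the smaller sizes reported here. Spans and promoters came from RefSeq tables on GRCh38.p14; no source used here names the build of the array annotation. The members and lists were chosen with earlier results of these data known. All measured members are named, as are BMI1 and, of each other list, the 2 genes past the floor with the largest absolute difference. After the values were seen, further GATA, FOX, SOX and PCGF genes of those lists were named too. Alternatives were other floors, sizes, scalings and probe set rules. Python 3.11.15, numpy 2.4.6, pandas 2.3.3, statsmodels 0.14.6 and matplotlib 3.10.9 were used.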

Additional observations from a re-analysis of the deposited data

How the results depend on the processing

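The counts of members higher and lower, and the 6 of 6 lower GATA and FOX genes, stayed within 1.5 times the reported counts under mean over probe sets, centring, quantile normalization, a subtracted loess trend, no floor, floors of 5 and on the mean, and inclusion of probe sets with several symbols. The exception was a floor of 7, which kept 18 members, 4 of them higher, and moved their median to -0.086 and the number 1.2-fold higher to 0 and lower to 1, since fewer genes were counted. Subtraction of the median of each span quintile, an alternative chosen after the data were seen, moved the median to -0.030 and left 1 member 1.2-fold lower. FOXD3 lay at the 1.2-fold limit, and the number lower was also 1 after centring on the sample median, 1 after quantile normalization and 1 after subtraction of the loess trend. At a size of 1.5-fold the members counted 0 higher and 0 lower. At 1.1-fold 3 of 30 were higher and 10 lower. The share of all genes at 1.1-fold was not counted, so these counts have no background beside them. Of the single members, 1 changed sign under any of these settings, NKX6-1, from -0.02 to 0.0020 with the span medians subtracted. No paired analysis was possible because each group holds 1 sample. Leaving out a replicate was not possible for the same reason. The deposited values carry no detection call, so whether dim members were expressed at all was not tested.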
